A study of Homo sapiens with 6 samples.

Results

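Laminin-332 is a secreted protein of epithelial basement membranes built as a trimer of different chains, alpha3 and beta3 among them, and hemidesmosomes are the junctions through which epithelial cells hold on to it. The genes described here are the 8 members LAMA3, LAMB3, ITGA6, ITGB4, COL17A1, DST, PLEC and CD151, taken by name from a table of 54261 genes. They were grouped by function with the si-SNHG17 against si-NC values of these libraries already known, so their differences between those groups are a description, with no p-values. Where members are counted among the genes called in the fit over all genes, that count describes them and does not test them. In si-SNHG17 cells the laminin beta3 chain gene LAMB3 stood 3.20-fold above si-NC and the integrin beta4 gene ITGB4 stood 1.74-fold above it, while the cytolinker gene PLEC stood at 58.8% of si-NC. The remaining 5 members had overlapping groups. LAMA3, the alpha3 chain gene, was one of these and had almost no counts in either group.

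The chains of laminin-332 are joined inside the cell and secreted as one trimer, which proteases then trim outside the cell. The alpha6 beta4 integrin binds it at the cell surface, the tetraspanin CD151 associates with laminin-binding integrins, and the long beta4 tail binds plectin, which holds keratin filaments. Full hemidesmosomes of stratified epithelia also contain collagen XVII and the epithelial form of dystonin, whereas simple epithelia form junctions of alpha6 beta4 and plectin without them. Laminin-332 and alpha6 beta4 are studied in carcinomas for their roles in both adhesion and migration.

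The study sequenced RNA from A549, an established human lung adenocarcinoma line grown in medium with serum. One group of 3 libraries came from cells with SNHG17 knockdown by siRNA (si-SNHG17) and the other group of 3 from cells that received the control siRNA (si-NC). The line is the same in both groups, and the labels name no further allele or agent. The series title ties the long noncoding RNA SNHG17 to growth and movement of lung cancer cells, and the comparison asks which transcripts change when it is lowered.

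Library totals ran from 8643076 to 12477214 counts. SNHG17 itself had 7.82, 8.39 and 11.3 CPM in si-SNHG17, against 38.7, 36.2 and 51.4 CPM in si-NC (CPM, a gene's counts per 1e6 counts of its scaled library). It averaged 9.16 ± 1.86 CPM in si-SNHG17 cells, against 42.1 ± 8.16 CPM in si-NC cells (n = 3 each, SD). The fitted log2 fold change was -2.21 (SE 0.167), the adjusted p by edgeR was 2.84e-07, and the exact two-sided permutation test gave p = 0.1, the smallest that 3 against 3 libraries allow. Replicate 3 of si-NC stood apart from its group, with a chi-square over its degrees of freedom of 8.85 and 8.40 against replicates 1 and 2, and these gave 2.25 against each other. The epithelial markers KRT8, KRT18, KRT19, EPCAM and CDH1 summed to 4988 to 5005 CPM in si-SNHG17 and 8417 to 9420.1 CPM in si-NC, with 3 lower and 1 higher. EPCAM was low, with 73 counts over the 6 libraries. Of 7 basal cell markers, 4 were tested, and NGFR alone was called, as higher. The list summed to 29.5 to 31.7 CPM in si-SNHG17 and 20.9 to 24.8 CPM in si-NC. Most of that sum was KRT15, with 1103 counts over the 6 libraries. S100A2 had 262, NGFR 182, TP63 58, KRT5 24 and KRT17 11, and KRT14 had no count. The 7 fibroblast markers summed to 23.8 to 31.2 CPM in si-SNHG17 and 23.3 to 29.4 CPM in si-NC, with COL1A2 and COL3A1 at 0, the 4 endothelial markers summed to at most 1.88 CPM, and the 4 immune markers summed to at most 0.342 CPM in si-SNHG17 and 0.197 CPM in si-NC, with PTPRC, CD3E and MS4A1 at 0 and LYZ at 8 counts over all libraries. Mitochondrially encoded genes took 4.16% to 4.53% of the counts in si-SNHG17 and 7.25% to 8.07% in si-NC. The part of these shifts in the values below was not tested, and in bulk RNA fewer cells of a type and less RNA per cell cannot be told apart.

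Start regions of LAMB3 and LAMA3 are shown because these members encode chains of the one trimer. RefSeq's GRCh38.p14 table held windows of 300 bases, from 250 bases before to 50 bases after a transcript start, for 5 of the 8 members at 10 starts. The letters TGANTCA, with any base at N, are in capitals and read the same way on both strands. Their forms TGACTCA and TGAGTCA are those that the AP-1 transcription factor is known to bind. TGANTCA with any base at N occurred in 7.71% of all 35116 windows. The share with TGACTCA or TGAGTCA alone was not counted, and every match in the members' windows was of these forms. The LAMA3 window at chr18:23872770-23873069 on the plus strand belongs to an inner start, since the gene begins upstream at 23689443 in GENCODE 29. It held the letters TGANTCA at 2 places, beginning 125 and 69 bases before that start. The LAMB3 window at chr1:209651325-209651624 on the minus strand held them once, 67 bases before the start, and the outermost LAMB3 window, chr1:209652376-209652675 on the same strand, did not hold them.
LAMA3, inner start: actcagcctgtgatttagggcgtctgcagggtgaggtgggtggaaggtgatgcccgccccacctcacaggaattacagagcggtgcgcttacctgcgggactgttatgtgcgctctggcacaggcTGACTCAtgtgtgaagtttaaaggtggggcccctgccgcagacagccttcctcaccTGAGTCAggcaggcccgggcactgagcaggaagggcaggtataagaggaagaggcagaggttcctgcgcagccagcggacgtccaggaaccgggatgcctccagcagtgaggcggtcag
LAMB3, inner start: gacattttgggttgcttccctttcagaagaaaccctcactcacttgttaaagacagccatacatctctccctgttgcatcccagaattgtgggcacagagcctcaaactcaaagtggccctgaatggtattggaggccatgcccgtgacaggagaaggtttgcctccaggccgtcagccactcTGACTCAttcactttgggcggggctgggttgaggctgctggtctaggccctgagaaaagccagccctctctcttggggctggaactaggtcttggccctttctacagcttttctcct
LAMB3, outermost start: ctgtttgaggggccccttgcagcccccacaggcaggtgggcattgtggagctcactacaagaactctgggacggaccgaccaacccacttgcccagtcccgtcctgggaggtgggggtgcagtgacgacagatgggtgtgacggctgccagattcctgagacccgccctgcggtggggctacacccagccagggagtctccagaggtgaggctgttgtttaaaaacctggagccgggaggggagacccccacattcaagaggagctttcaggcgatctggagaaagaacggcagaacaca
The middle LAMB3 window, both ITGA6 windows and the COL17A1 window had no such letters, and 1 of 3 DST windows had them, beginning 25 bases after the start. A match is a description of the letters and not of binding.

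LAMB3 had the largest fold difference of the 7 members with a fitted value. Its gene lies on chromosome 1 from 209614870 to 209652466 on the minus strand (GENCODE 29, GRCh38). It had 205, 209 and 206 CPM in the si-SNHG17 libraries, while the si-NC libraries had 59.2, 54.4 and 79.9 CPM. Every si-SNHG17 library lay above every si-NC library, and the si-SNHG17 libraries were close together while si-NC replicate 3 was 40.6% above the mean of the other si-NC libraries. The means were 207 ± 2.48 CPM in si-SNHG17 cells, against 64.5 ± 13.5 CPM in si-NC cells (n = 3 each, SD), a log2 fold change of 1.68 with a standard error of 0.118. The si-SNHG17 value rested on 6389 counts over its libraries and the si-NC value on 1925.

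LAMA3 was close to absent from the table. This gene lies on chromosome 18 from 23689443 to 23956222 on the plus strand and encodes the alpha3 chain, without which the complete trimer does not form. Its counts were 3, 6 and 0 in si-SNHG17, against 9, 3 and 9 in si-NC. The groups overlapped, and the library with no count allows up to 3 counts, or 0.342 CPM, for counting error alone. LAMA3 was the only member that did not pass the filter on low counts, so it has no fitted fold change. MACF1, a plakin gene transcribed in many cell types and named here after its values were seen, also had only 5 to 10 counts per library. Whether the counting lost reads of such genes was not tested.

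**Figure D1:**
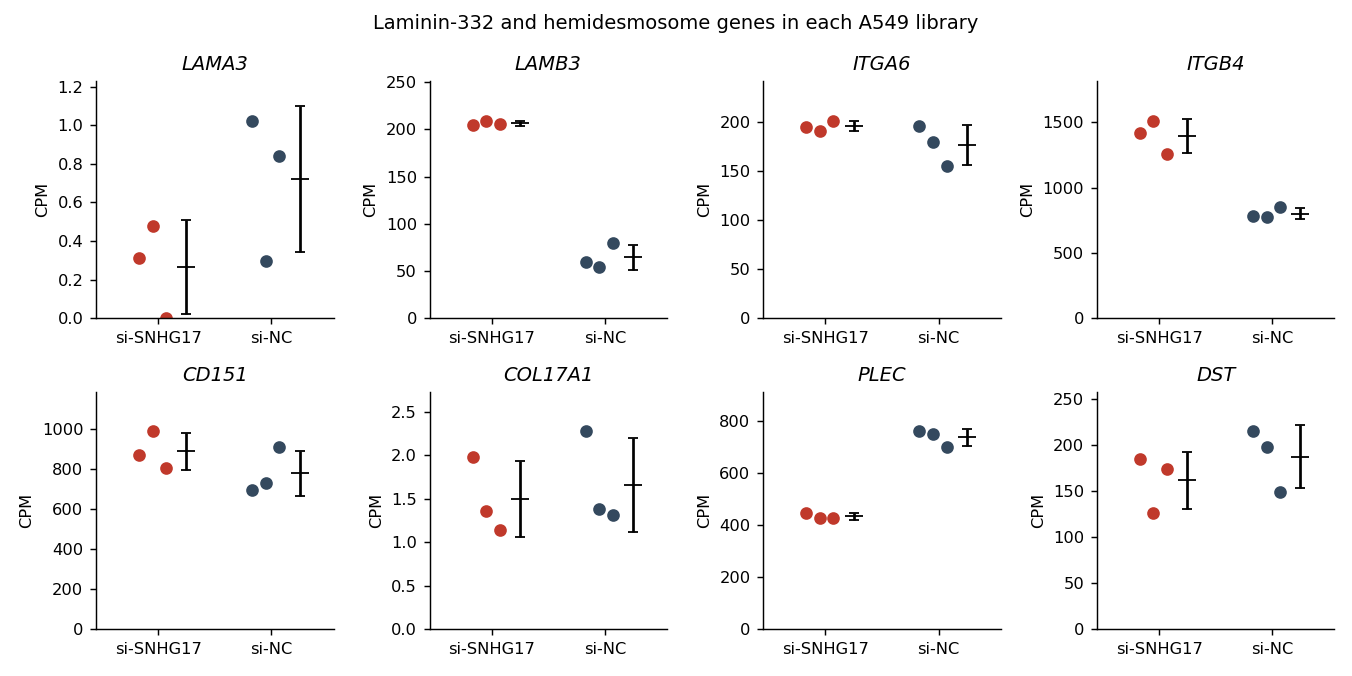
CPM of the 8 members in each A549 library (points; 3 per group), with the mean and SD beside them; each panel has its own linear axis from 0. LAMB3 and ITGB4 lie higher and PLEC lower in all si-SNHG17 libraries, and the other panels overlap.

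The shares of the chains followed these levels, and they take the counts as given. Whether counting lost LAMA3 reads, which would lower its share and raise that of LAMA5, was not tested. Per kilobase of the longest coding transcript, LAMB3 made up 23.5% ± 0.593 of the 4 beta chain genes in si-SNHG17 cells, against 7.89% ± 1.83 in si-NC cells (n = 3 each, SD). LAMA3 made up 0.0450% ± 0.0409 of the 5 alpha chain genes in si-SNHG17 and 0.151% ± 0.0806 in si-NC. LAMA5, the alpha chain of laminins found in many epithelia, held 99.7% ± 0.0759 in si-SNHG17 and 99.8% ± 0.0739 in si-NC. LAMB1 held the largest share of the beta chains in both groups, at 56.0% ± 0.223 in si-SNHG17, against 72.3% ± 3.19 in si-NC.

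**Figure D2:**
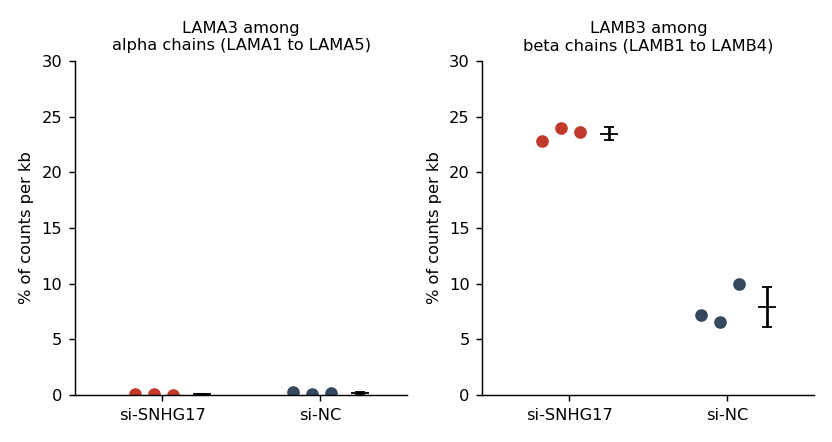
Share of LAMA3 and LAMB3 among the genes of their own chain type, in percent of counts per kilobase, in each library (points) with mean and SD. LAMB3 took 22.8% to 24.0% of the beta chains in si-SNHG17 and 6.52% to 9.97% in si-NC, and LAMA3 stayed at or below 0.225%.

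The beta4 and alpha6 chains of the laminin receptor were not alike. ITGB4, on chromosome 17 from 75721328 to 75757818, had 1416, 1514 and 1256 CPM in si-SNHG17, against 781, 773 and 849.9 CPM in si-NC. All si-SNHG17 libraries were above all si-NC libraries, with a gap of 406 CPM between the groups. The means were 1395 ± 130 CPM in si-SNHG17 cells, against 802 ± 42.1 CPM in si-NC cells (n = 3 each, SD), and the fitted log2 difference was 0.80 (SE 0.082).

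ITGA6, the alpha6 partner, on chromosome 2 from 172427354 to 172506282, had 194, 191 and 201 CPM in si-SNHG17, against 195, 179 and 155 CPM in si-NC. The groups overlapped, and the lowest value was that of si-NC replicate 3. The fitted log2 difference was 0.15 (SE 0.089). Per kilobase, ITGB4 stood at 6.78 ± 0.806 times ITGA6 in si-SNHG17 cells, against 4.37 ± 0.747 times in si-NC cells (n = 3 each, SD), with 5.92 to 7.52 times in si-SNHG17 libraries and 3.79 to 5.21 times in si-NC libraries. The ratio depends on the length used: per kilobase of coding length it was 4.43 ± 0.527 in si-SNHG17 and 2.85 ± 0.488 in si-NC.

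CD151, on chromosome 11 from 832843 to 839831, encodes the tetraspanin that associates with laminin-binding integrins. It had 872, 988 and 803 CPM in si-SNHG17, against 697, 729 and 908 CPM in si-NC. The groups overlapped through si-NC replicate 3, which was higher than 2 of the 3 si-SNHG17 libraries. The fitted log2 difference was 0.19 (SE 0.104). Without si-NC replicate 3 it was 0.32, and without si-SNHG17 replicate 2 it was 0.11. In GENCODE 29, 6.53% of CD151 exon bases also belong to POLR2L on the opposite strand, and the sources used here do not say whether counting used strand.

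The plakin genes, whose products tie the junction to keratin filaments, were not alike. PLEC, which encodes plectin, lies on chromosome 8 from 143915147 to 143976734. It had 448, 427 and 426 CPM in si-SNHG17, against 762, 752 and 701 CPM in si-NC. The groups were separate, with every si-SNHG17 library lower. The means were 434 ± 12.7 CPM in si-SNHG17 cells, against 738 ± 32.5 CPM in si-NC cells (n = 3 each, SD), a log2 fold change of -0.77 with a standard error of 0.072.

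DST, which encodes dystonin, lies on chromosome 6 from 56457987 to 56954628 and had 185, 127 and 174 CPM in si-SNHG17, against 215, 198 and 149 CPM in si-NC. The groups overlapped, with replicate 2 of si-SNHG17 and replicate 3 of si-NC lowest in their groups. The fitted log2 difference was -0.21 (SE 0.142). Without si-NC replicate 3 it was -0.36, and without si-SNHG17 replicate 2 it was -0.06. Gene counts join the epithelial form of dystonin with its long neuronal and muscle forms (18 coding transcripts in GENCODE 29), so the hemidesmosomal form was not measured on its own. COL17A1, the gene of the transmembrane collagen of hemidesmosomes, lies on chromosome 10 from 104031286 to 104085957 and showed counts of 19, 17 and 10 in si-SNHG17, against 20, 14 and 14 in si-NC. The groups overlapped at 1.14 to 1.98 CPM in si-SNHG17 and 1.31 to 2.28 CPM in si-NC. Its log2 fold change was -0.13, and the standard error of 0.362 was the widest among the 7 members with a fitted value.

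The fit over all genes, by edgeR's quasi-likelihood test with Benjamini-Hochberg adjustment, called 39.1% of 15614 genes at an adjusted p under 0.05, 19.6% higher and 19.6% lower. Of the 7 members that entered it, 2 were among the genes called higher and 1 among those called lower. The same 3 members had groups that did not overlap, as did 49.4% of all genes tested, 25.1% on the higher side and 24.3% on the lower side. LAMB3 alone also changed at least 2-fold, which 9.38% of genes did, 4.46% of all genes on the higher side. The median log2 fold change was 0.15 over the 7 members and 0.01 over all genes. The members were chosen with this contrast known, so these counts are no test of them and nothing is read from them.

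Levels of different genes were compared per kilobase of the longest coding transcript. In si-SNHG17 the order was CD151 (535 ± 56.5 CPM per kilobase; SD, n = 3), ITGB4 (236 ± 22.0), LAMB3 (48.0 ± 0.577), ITGA6 (34.8 ± 0.930), PLEC (28.4 ± 0.831), DST (7.21 ± 1.37), COL17A1 (0.262 ± 0.0768) and LAMA3 (0.0248 ± 0.0228). In si-NC it was CD151 (469 ± 68.7 CPM per kilobase), ITGB4 (135 ± 7.11), PLEC (48.4 ± 2.13), ITGA6 (31.4 ± 3.65), LAMB3 (15 ± 3.14), DST (8.36 ± 1.52), COL17A1 (0.291 ± 0.0947) and LAMA3 (0.0676 ± 0.0356). LAMB3 thus stood above ITGA6 and PLEC in si-SNHG17 and below both in si-NC. Within a group, the libraries of neighbours in this order did not overlap. DST was divided by 22.4 kilobases by either length, that of its longest form, so its place depends on that choice. A shorter form was not tried. With coding length in place of transcript length, LAMB3 and ITGA6 overlapped in si-SNHG17, and PLEC and ITGA6 overlapped in si-NC. COL17A1 and LAMA3 were the lowest by either length, below the laminin chains LAMA5, at 53.1 ± 2.99 CPM per kilobase in si-SNHG17 and 44.5 ± 3.54 in si-NC, and LAMC1, at 89.1 ± 2.58 in si-SNHG17 and 86.2 ± 12.2 in si-NC.

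**Figure D3:**
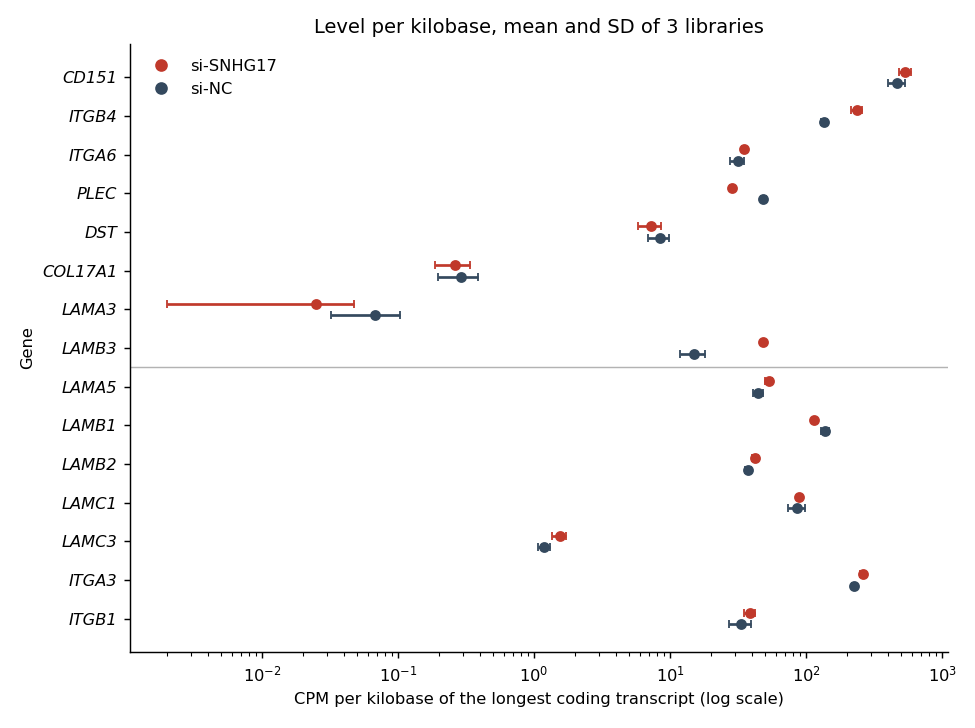
CPM per kilobase of the longest coding transcript on a log axis, mean and SD of 3 libraries per group, for the members (above the line) and other laminin and integrin genes (below it). LAMB3 lies at 48.0 CPM per kilobase in si-SNHG17 and at 15 in si-NC, while COL17A1 and LAMA3 lie below 1 in both groups.

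Of 9 other laminin chain genes, 5 were tested, LAMA5 rose and LAMB1 fell, with a median log2 fold change of 0.16. LAMB1, the beta chain of widely expressed laminins, averaged 660.1 ± 11.2 CPM in si-SNHG17 and 795 ± 51.5 CPM in si-NC (log2 fold change -0.27, adjusted p = 0.00998 by edgeR; 0.0555 without si-NC replicate 2). LAMA5 averaged 607 ± 34.1 CPM in si-SNHG17 and 508 ± 40.4 CPM in si-NC (log2 fold change 0.26, adjusted p = 0.0211 by edgeR), and its call was lost without si-SNHG17 replicate 1 or 2 or si-NC replicate 1 or 2, at adjusted p of 0.0589, 0.0857, 0.0874 and 0.0955. LAMC3, a chain gene at a low level, averaged 9.45 ± 1.11 CPM in si-SNHG17 and 7.25 ± 0.728 CPM in si-NC (log2 fold change 0.39, adjusted p = 0.088 by edgeR). LAMA2 and LAMB4 had no count in any library.

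Of 12 other laminin receptors and surface partners, not all of them specific to laminin-332, all were tested, 6 rose and 2 fell, with a median of 0.20. The tetraspanin CD82, which is known to restrain cell migration, averaged 42.8 ± 3.53 CPM in si-SNHG17 and 15.5 ± 1.99 CPM in si-NC (log2 fold change 1.46, adjusted p = 7.16e-07 by edgeR). ITGA2, the alpha chain of a collagen and laminin receptor, averaged 213 ± 27.7 CPM in si-SNHG17 and 83.3 ± 14.1 CPM in si-NC (log2 fold change 1.36, adjusted p = 1.48e-06 by edgeR). BSG, the glycoprotein basigin, rose by 0.92 on the log2 scale. ITGA3 and ITGB1, which together form the other main laminin-332 receptor and are named after their values were seen, had log2 fold changes of 0.21 (adjusted p = 0.032 by edgeR) and 0.20 (not past the threshold). Per kilobase, ITGB4 stood at 6.15 ± 0.431 times ITGB1 in si-SNHG17 and 4.14 ± 0.761 times in si-NC, or 4.23 ± 0.296 times in si-SNHG17 and 2.85 ± 0.523 times in si-NC with coding length.

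Of 9 tested proteases that cut laminin-332 or collagen XVII or activate plasmin, of 11 listed, 3 rose and 1 fell, with a median of 0.05. PLAU, the urokinase gene, averaged 1114 ± 50.9 CPM in si-SNHG17 and 522 ± 48.5 CPM in si-NC (log2 fold change 1.09, adjusted p = 2.65e-07 by edgeR). Of the 3 collagen XVII sheddase genes, ADAM9 fell, with a log2 fold change of -0.55, while ADAM17 and ADAM10 rose by 0.50 and 0.38 on the log2 scale. ADAM10 is named after its values were seen. Of the other 5 plakin genes, 3 were tested and 0 passed by edgeR, DESeq2 or limma-voom, and 0 had an unadjusted p under 0.05. DSP, EVPL and PPL, which encode desmosomal and cornified envelope plakins, had log2 fold changes of 0.18, 0.10 and -0.03.

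Of 11 basement membrane genes, 10 were tested, 4 rose and 1 fell, with a median of 0.29. The nidogen genes, whose products bind laminins in the sheet, both rose, with NID2 at 48.7 ± 4.98 CPM in si-SNHG17 and 24.7 ± 4.23 CPM in si-NC (log2 fold change 0.98, adjusted p = 3.91e-05 by edgeR) and NID1 at a log2 fold change of 0.53. COL4A2, a collagen IV chain, rose by 0.77 at a low level, 5.33 ± 0.740 CPM in si-SNHG17 and 3.11 ± 0.0434 CPM in si-NC, and its adjusted p by edgeR was 0.0571 without si-SNHG17 replicate 1. Of 11 signalling partners of alpha6 beta4, 5 rose and 1 fell, with a median of 0.14. They included the insulin receptor substrates IRS2 (0.61) and IRS1 (0.48) and the SRC family kinase YES1 (0.51), all log2 fold changes past the threshold by edgeR. FYN, another SRC family kinase, and EGFR, the epidermal growth factor receptor, had larger changes at low counts and are named after their values were seen. FYN fell by 1.6 on the log2 scale, at 1.42 ± 0.593 CPM in si-SNHG17 and 4.25 ± 0.876 CPM in si-NC, and EGFR rose by 1.19, at 5.69 ± 0.606 CPM in si-SNHG17 and 2.51 ± 0.826 CPM in si-NC. Whether counting lost reads of COL4A2, FYN or EGFR was not tested.

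Focal adhesions are the actin-linked counterpart of hemidesmosomes, and 10 of 15 adaptor genes passed, 6 higher and 4 lower, with a median of 0.05. PXN, the scaffold paxillin, averaged 112 ± 6.74 CPM in si-SNHG17 and 257 ± 2.93 CPM in si-NC (log2 fold change -1.19, adjusted p = 6.47e-08 by edgeR). FERMT2, the integrin activator kindlin-2, and ZYX, the actin-binding zyxin, rose by 0.83 and 1.02. The background for all these lists was the 39.1% of genes called and the median of 0.01, and the lists were drawn up with earlier results known.

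**Figure D4:**
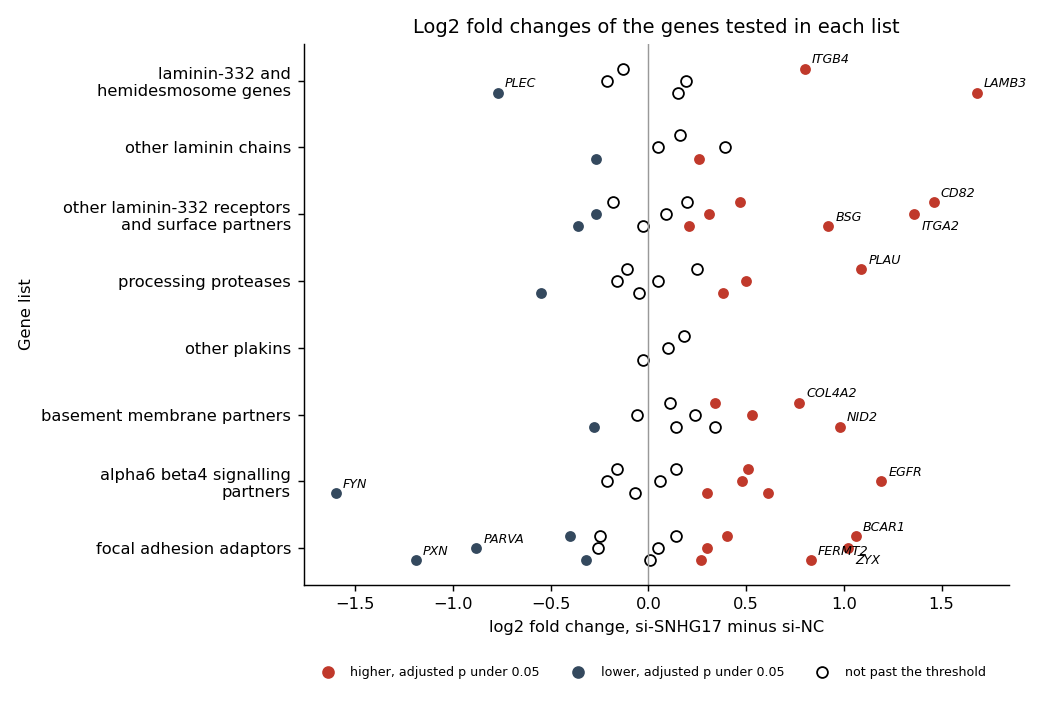
Log2 fold change (si-SNHG17 minus si-NC) of every tested gene in each list, 1 point per gene; filled points passed an adjusted p under 0.05 by edgeR, open points did not, and called genes beyond 0.75 in either direction are named. LAMB3 at 1.68 lies farthest to the right, and the other plakins all lie open near 0. The row of members is a description and no test of them, since they were chosen with this contrast known.

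Profiles were also compared over the 6 libraries, as log2 CPM centred on each gene's mean, by the root mean square difference. Of the pairs of tested members that include LAMB3, LAMB3 and ITGB4 were the closest, at 0.472. LAMB3 and PLEC were 1.25 apart. ITGA6 was 0.364 from its partner ITGB4 and 0.242 from CD151. Of 10001 messenger RNAs with a mean of at least 5 CPM outside the members, the nearest to LAMB3 was DSCAML1 (0.0670), to ITGB4 IRF2BPL (0.0401) and to PLEC OR1J2 (0.00659). The nearest to CD151 was PAFAH1B3 (0.0206), to ITGA6 PJA2 (0.0192), to DST IPO5 (0.0355) and to COL17A1 VWDE (0.126). The profiles include the step between the groups, so the distances describe likeness of levels over these libraries only.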

How the data were processed

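The authors' deposited table held raw counts, as whole numbers without normalization, of 54261 genes in 6 A549 libraries. Per the labels' protocols, RNA was extracted with Trizol and single-end libraries were sequenced on an Ion Proton; the submitters' processing notes name GRCh38. The aligner, counter, annotation and strand setting were not given in the sources used here. Columns were matched to libraries by title. The labels do not say whether replicates were separate cultures, so p-values reflect only library-to-library spread that may be technical; no pair of libraries agreed within sampling noise.

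The test was edgeR 4.0.16 (R 4.3.3) with filterByExpr, TMM scaling (factors 0.975 to 1.02) and the functions glmQLFit and glmQLFTest, a design of group alone, and Benjamini-Hochberg adjustment over 15614 genes with a threshold of 0.05. The code was tested on simulated data. Log2 differences take si-NC from si-SNHG17. The standard error (SE) was worked back from the test, as the size of the log2 difference over the square root of the F statistic. The prior count for profiles was 2. Gene positions and lengths came from GENCODE 29 and promoters from RefSeq GRCh38.p14. Alternatives were other scalings and filters, DESeq2 1.42.0, limma 3.58.1 voom, a replicate block and leaving out each library. The members, the related lists and the rule for named genes (members, SNHG17, up to 3 genes per list with the smallest p, and the nearest profile to each member) were chosen with earlier results of these data known. A few genes of these lists are not reported here and were left out of the list counts.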

Additional observations from a re-analysis of the deposited data

How the results depend on the processing

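Over 14 alternatives the log2 difference ran from 1.56 to 1.86 for LAMB3, from 0.74 to 0.88 for ITGB4 and from -0.80 to -0.73 for PLEC. These members were chosen on this contrast, so the ranges describe the settings and do not support the differences. SNHG17 ran from -2.37 to -2.04. Over the fits that left out 1 library, the number of members among the genes called was 3 to 5, 2 to 3 higher and 1 to 2 lower. The 5 included DST (-0.358) and CD151 (0.316) and came without si-NC replicate 3. These counts are no test of the members either. In the same fits ITGA6 ran from 0.060 to 0.227, DST from -0.358 to -0.061, CD151 from 0.109 to 0.316, and COL17A1 from -0.366 to 0.146, with its sign turned without si-SNHG17 replicate 3 (0.0144) or si-NC replicate 1 (0.146). All genes past the threshold numbered 4911 to 6601 in these fits (2473 to 3335 higher, 2438 to 3266 lower), the other laminin chains 0 to 3, beside 2 with all libraries, with 0 without si-NC replicate 2 and 1 without si-NC replicate 1 or si-SNHG17 replicate 1 or 2, and the basement membrane genes 3 to 5, with 3 without si-SNHG17 replicate 1 or 3. Requiring at least 2-fold left 1465 genes and 1 member, by construction. PPL, not past the threshold, ran from -0.0822 to 0.0157 without 1 library and turned to 0.0113 with library totals only, 0.0157 without si-SNHG17 replicate 3 and 0.0101 without si-NC replicate 1; the causes were not tested. With coding length the si-NC levels per kilobase were 18.3 for LAMB3, 52.1 for ITGA6, 147 for ITGB4, 52.5 for PLEC and 1025 for CD151, higher because that length is shorter.

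With a replicate block LAMB3 stood at 1.70, ITGB4 at 0.80 and PLEC at -0.77, and 5579 genes were called, 3 members among them. Libraries of like number deviated with correlations of 0.06, -0.11 and -0.09, so the numbers were not taken to pair them. Counts of 0 to 9 per library limit LAMA3, and 10 to 20 limit COL17A1.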

Other observations

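Replicate 2 of si-SNHG17 and replicate 3 of si-NC were each set against the mean of the other libraries of their own group. The sign of the difference was the same for 8 of the 8 members, a pattern described after the values were seen. The share of all genes with such a match was not counted, so nothing about the members is read from it. DST differed by -29.3% in that si-SNHG17 library and by -27.7% in that si-NC library. CD151 was 18% higher in the si-SNHG17 library and 27.4% higher in the si-NC library, and ITGB4 was 13.3% and 9.33% higher. LAMB3 was 2.05% higher in the si-SNHG17 library and 40.6% higher in the si-NC library. ITGA6, PLEC and COL17A1 were lower in both, with differences of -3.44%, -2.34% and -13% in the si-SNHG17 library and of -17.4%, -7.34% and -28.3% in the si-NC library. LAMA3, at 9 counts or fewer, was higher than that mean in both. Some of these libraries did not stand apart from every other library of their group. In si-SNHG17, PLEC had 427 CPM in replicate 2 and 426 in replicate 3. COL17A1 had 1.36 CPM in replicate 2, between 1.98 in replicate 1 and 1.14 in replicate 3. In si-NC, LAMA3 had 0.843 CPM in replicate 3 and 1.02 in replicate 1. Over all genes tested, the deviations of these libraries from their group means had r = 0.21, the highest of the 9 pairs across groups, and no test was made of it.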
